A study of Homo sapiens with 6 samples.

Results

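The comparison of SBC-3 cells given the SFPQ siRNA siSFPQ-2 with cells given the control siRNA siCtrl is described here from PRO-seq, with 2 libraries on each side, 4 of the 6 in the series. Its members are the siSFPQ-2 and siCtrl columns of the deposited table of normalized reads, with the gene profiles of the same 4 libraries. SBC-3 is an established line of small cell lung cancer, labelled wild type in siCtrl libraries and SFPQ knockdown in siSFPQ-2 libraries. Both groups were reverse transfected at 10 nM and were permeabilized at 72 h, and the other 2 libraries came from cells given a different siRNA against the same gene, siSFPQ-3. All groups carry the transfection itself, and no untransfected cells are among the samples analysed here. Whether a group's libraries stem from separate cultures is not in the labels, and p-values then measure only their spread, which may be technical. The table held 25827 features, of which 21773 reached 10 in 2 or more libraries and were tested. The libraries held between 12072813 and 18475158 reads, and 1 read was worth between 0.797 and 1.11 normalized reads.

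SFPQ is an RNA- and DNA-binding protein of the DBHS family, with NONO and PSPC1 as its relatives. It binds nascent RNA, takes part in transcription, splicing and DNA repair, and is a core protein of paraspeckles, nuclear bodies that assemble around the NEAT1 transcript. PRO-seq labels RNA at the active site of engaged RNA polymerases in permeabilized cells, so the reads of a gene show how much polymerase is transcribing it and not how much mature RNA the cell holds. Many cell cycle genes are switched as groups in proliferating cells, through E2F sites for S phase and through the CHR element for mitosis, whereas NF-kB and ERK signalling switch on genes of their own inhibitors. Those groups are described in turn.

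At the target gene itself, SFPQ (chromosome 1, 35176380 to 35193145, GRCh38), normalized reads were 2294 and 2435 in siCtrl and 1825 and 1972 with siSFPQ-2. Both siSFPQ-2 libraries lay below both siCtrl libraries, but the log2 fold change of -0.32 (SE 0.13) did not pass the threshold of an adjusted p under 0.05 (limma, adjusted p = 0.0778). An siRNA degrades mature RNA, so this value does not measure the knockdown. Of 30 tested genes of the DBHS family and paraspeckles, 5 rose and 4 fell, with a median log2 fold change of -0.16. Across all tested features 21.2% were called higher and 17.9% lower, with a median of -0.01, so the paraspeckle list, at 16.7% and 13.3%, held fewer calls than the background. Only 1 of its members was called higher without the first siCtrl library, and 1 lower without the second. NEAT1 rose from 1875 and 2019 to 3336 and 2880, which is 0.67 on the log2 scale (SE 0.13, adjusted p = 2.47e-03). The paraspeckle protein gene RBM14 fell by 0.52 on the log2 scale. NONO (log2 fold change -0.12) and PSPC1 (0.13) did not pass the threshold.

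In all, 4621 features rose and 3906 fell with siSFPQ-2 (39.2% of those tested), and 1860 and 1230 of them changed by at least 2-fold. Large changes were more often rises: 518 features rose and 111 fell by at least 4-fold, 146 and 11 by at least 8-fold, and 30 and 2 by at least 16-fold. Both siSFPQ-2 libraries lay above both siCtrl libraries at 8034 features (36.9%) and below them at 8124 (37.3%). Both counts were smaller with any 1 of the 4 libraries left out, and least so without the first siSFPQ-2 library. Such a fit has 1 library in a group, and the part of single libraries in the calls was not tested.

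The 15 largest rises and falls were taken among features with a symbol that is no clone name and a mean over the 4 libraries of at least the median of tested features, 291, and with groups that do not overlap. The largest rise among them was that of TNFRSF9, which encodes the costimulatory receptor CD137 (chromosome 1, 7915871 to 7940839). It had 43.8 and 53.2 normalized reads in siCtrl and 849 and 1640 with siSFPQ-2, a 25.7-fold rise (log2 fold change 4.58, SE 0.29, adjusted p = 2.45e-06). The siSFPQ-2 libraries differed from each other at this gene, and leaving 1 library out moved the log2 fold change between 4.11 and 5.06. CNTNAP2, a neurexin family gene spanning 2304 kb (chromosome 7, 146116801 to 148420998), went from 265 and 250.4 to 3832 and 4660, a 16.5-fold rise. The thyroglobulin gene TG rose 14.7-fold, from 46.2 and 53.2 to 644 and 819. The transmembrane collagen gene COL13A1 had 67.7 and 64.2 in siCtrl against 971 and 952, and its libraries agreed within each group far more closely than the groups did. RUNX2, the transcription factor of bone formation, rose from 176 and 171 to 2149 and 2106 (log2 fold change 3.61, SE 0.10, adjusted p = 3.51e-08), and the inflammatory caspase gene CASP4 from 55.0 and 45.4 to 713 and 623. The other leading rises, between 10.5-fold and 13.2-fold, were the ion transport family gene ANO3, the receptor phosphatase gene PTPRB, the urate transporter gene SLC2A9, the collagen receptor gene ITGA2, the transcription factor genes CREB5 and ZNF608, the RNA-editing cofactor gene A1CF, the schlafen gene SLFN5 and the non-coding LINC01357. By the same rule, both siSFPQ-2 libraries lay above both siCtrl libraries at each of these 15 genes.

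The largest falls were smaller in fold than the largest rises. ID2-AS1, a non-coding gene beside ID2 (chromosome 2, 8670984 to 8681863), fell from 646 and 613 to 161 and 49.8, or -2.80 on the log2 scale (SE 0.55, adjusted p = 2.59e-03) that ranged from -3.63 to -1.96 when 1 library was left out. ID2 itself, an inhibitor of basic helix-loop-helix factors, fell from 1267 and 1334 to 544 and 500.5. The long gene NAALADL2 had 2800 and 2217 in siCtrl and 529 and 279 with siSFPQ-2. IFIT1, an interferon-induced RNA-binding protein gene, had 2042 and 1921 against 563 and 293, and the helicase subunit gene GINS4 had 1318 and 1270 against 395 and 213. In each of these genes the first siSFPQ-2 library was the higher of the pair, and both lay below both siCtrl libraries by the rule of choice. Also among the leading falls were KBTBD11, the mitotic kinase gene PBK, the histone H3 genes H3C14 and H3C15, C21orf58, ENPP2, which encodes the enzyme autotaxin, the mitochondrial import gene TIMM21, KRT223P, LINC01994 and LINC01926. The calls of the last 3 were lost without a siCtrl library, KRT223P at an adjusted p = 0.0501 and 0.0523, LINC01994 at 0.0554, and LINC01926 at 0.0593 and 0.0556, and LINC01926 also without the second siSFPQ-2 library (0.0501).

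**Figure D1:**
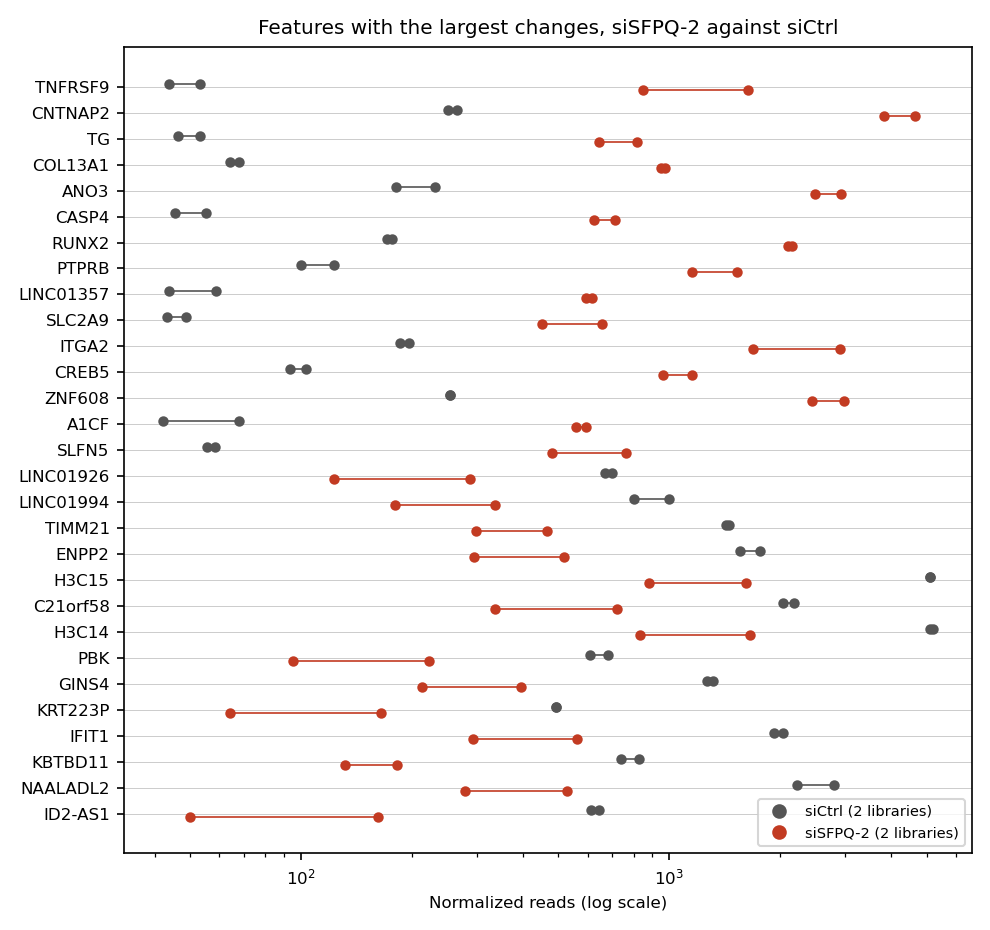
Normalized reads on a log scale of the 15 largest rises and 14 of the largest falls with siSFPQ-2 that met the rule for named genes; each point is a library and a line joins the 2 libraries of a group (siCtrl grey, siSFPQ-2 red). The red points of the upper 15 genes lie to the right of the grey points of the same gene, and those of the lower 14 lie to the left with a wider gap between the 2 red points.

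Genes that start DNA replication fell almost as a whole. Of 28 tested genes of origin licensing and firing, which load the MCM helicase on DNA before S phase and then activate it, 26 fell and 2 rose (92.9% and 7.14%), with a median log2 fold change of -0.92. The MCM helicase subunits, which unwind DNA at the fork, all lost reads: MCM3 went from 610 and 614 to 288 and 213 and MCM5 from 681 and 616 to 294 and 155. MCM2 went from 727 and 647 to 409 and 323 and MCM4 from 1124 and 1171 to 653 and 550. MCM6 (log2 fold change -0.52) and MCM7 (-0.46) fell least, and neither was called with the first siCtrl library left out (adjusted p = 0.0778 and 0.111) or the second siSFPQ-2 library (0.0640 and 0.124), nor MCM7 with the second siCtrl library left out (0.0909). The GINS subunits, which hold the helicase together, fell in every case: GINS1 from 820 and 795 to 424 and 286 and GINS2 from 242 and 230.4 to 97.1 and 68.6. GINS3 fell from 168 and 188 to 99.8 and 94.1, besides GINS4 above.

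Within the origin recognition complex, which marks the sites where replication starts, the subunits parted. ORC1 fell from 662 and 623 to 387 and 299 and ORC6 from 454 and 464 to 206 and 132. ORC4 rose instead, from 670 and 537 to 915 and 1089 (log2 fold change 0.73, SE 0.13, adjusted p = 1.71e-03). ORC2 (log2 fold change 0.33) was also called higher and ORC3 (-0.31) and ORC5 (-0.41) lower, all by little. The calls of ORC2 and ORC3 were lost without any one of the 4 libraries (adjusted p from 0.0632 to 0.183 and from 0.0907 to 0.232) and by DESeq2, that of ORC3 also by edgeR, with no filter and at the same total, and that of ORC5 without the first siCtrl library (0.216) or either siSFPQ-2 library (0.0798 and 0.0809). The licensing factor gene CDC6 (638 and 648 against 336 and 299) fell as well, and so did MCM10 (596 and 542 against 266 and 189).

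Of 34 tested genes of the replication fork, 31 fell and 0 rose, with a median of -0.95; 0 also rose with edgeR and with DESeq2, and by limma at an unadjusted p under 0.05. PCNA, the sliding clamp that holds DNA polymerases, fell from 567 and 514 to 254 and 208. CHTF18, part of a clamp loader, fell from 364 and 373 to 153 and 120, and POLE, the leading-strand polymerase, from 2346 and 2373 to 1208 and 868. Deoxynucleotide synthesis followed with 15 of 24 genes lower and 2 higher (median -0.42), among them the thymidylate synthase gene TYMS (827 and 760 against 362 and 246), DTYMK (647 and 639 against 299.5 and 241) and the pyrimidine synthesis gene CAD (1070 and 1076 against 615 and 580.2). In the siSFPQ-2 group the first library was above the second at 33 of 34 fork genes and 25 of 28 origin genes, by a median of 0.36 and 0.29 on the log2 scale, against 0.05 and 0.08 between the siCtrl libraries. The part of this library difference in the falls was not tested. The number of lower origin genes was between 18 and 24 without any single library, and that of fork genes between 27 and 32.

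The E2F site is the known switch of many of these genes, and promoter windows from RefSeq (GRCh38.p14, 250 bases before to 50 after each start) were searched on both strands for the letters TTTCCCGC or TTTGGCGC. They occurred in 9 of 22 origin genes with a window (40.9%) and in 8 of 28 fork genes (28.6%), beside 2.31% of 27305 windows of all genes and 3.58% of 12239 windows of tested genes. Members with a match in the 150 bases before the start include PCNA, MCM6, GINS2 and the licensing factor gene CDT1, which went from 639 and 624 to 306 and 222. The 150 bases before the start of these 4, which were chosen after their values were seen, follow with the match in capitals, to show where it lies in genes that fell with siSFPQ-2.
PCNA, chr20:5126623-5126772, minus strand: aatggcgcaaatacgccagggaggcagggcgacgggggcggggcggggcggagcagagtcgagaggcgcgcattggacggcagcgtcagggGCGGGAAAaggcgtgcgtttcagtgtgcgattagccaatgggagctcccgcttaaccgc
MCM6, chr2:135876444-135876593, minus strand: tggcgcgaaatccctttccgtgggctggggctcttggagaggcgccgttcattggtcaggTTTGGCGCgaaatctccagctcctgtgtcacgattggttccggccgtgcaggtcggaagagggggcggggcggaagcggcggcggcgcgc
GINS2, chr16:85688955-85689104, minus strand: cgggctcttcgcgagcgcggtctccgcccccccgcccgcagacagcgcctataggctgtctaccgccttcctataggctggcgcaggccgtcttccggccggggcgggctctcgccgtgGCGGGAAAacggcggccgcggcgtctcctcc
CDT1, chr16:88803639-88803788, plus strand: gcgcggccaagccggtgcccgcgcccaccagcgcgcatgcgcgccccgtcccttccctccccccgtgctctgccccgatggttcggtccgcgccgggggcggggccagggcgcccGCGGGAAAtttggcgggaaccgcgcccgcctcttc

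Genes of mitosis fell as well. Of 36 tested mitotic kinases and regulators, 33 fell and 1 rose (91.7% and 2.78%), with a median log2 fold change of -1.17. CDK1, the kinase that drives entry into mitosis, had 957 and 959 normalized reads in siCtrl and 343 and 238 with siSFPQ-2, or -1.74 on the log2 scale (SE 0.17, adjusted p = 3.07e-05). The spindle checkpoint kinase gene BUB1 fell from 600.1 and 509 to 206 and 151, and the centrosome kinase gene AURKA from 628 and 589 to 282 and 212. The exception was WEE1, the kinase that inhibits CDK1, which rose from 1025 and 914 to 1530 and 1360 (log2 fold change 0.58, SE 0.11, adjusted p = 2.56e-03). Of 35 centromere and kinetochore genes, which attach chromosomes to the spindle, 27 fell and 0 rose (median -1.08), with ZWINT at 210 and 193 against 74.9 and 45.4 and CENPN at 874 and 902 against 421 and 404. Of 25 mitotic kinesins and spindle genes, 23 fell and 0 rose (median -1.14), including the depolymerizing kinesin gene KIF2C (949 and 810 against 425 and 331), DLGAP5 (log2 fold change -1.45) and TACC3 (1211 and 1138 against 580.2 and 359). In both of these lists 0 members rose with edgeR and with DESeq2, and 0 by limma at an unadjusted p under 0.05.

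The 2 siSFPQ-2 libraries differed most in these lists. The first library was above the second at all 36 mitotic kinases and regulators and at 23 of 25 kinesin and spindle genes, by a median of 0.54 and 0.57 on the log2 scale, while the siCtrl libraries differed by a median of 0.10 and 0.18. Without the first siSFPQ-2 library the medians of the 2 lists were -1.48 and -1.43, and without the second they were -0.90 and -0.83. The count of lower mitotic kinases and regulators stayed between 32 and 33 without any single library, and that of kinesin and spindle genes between 18 and 23.

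The CHR element, a known site of the complex that represses mitotic genes outside G2 phase, reads TTTGAA or TTTAAA. These letters, short enough to be frequent by base composition alone, were found on either strand in 24.3% of all windows and 15.9% of those of tested genes. They were in 20 of 24 windows of the kinesin and spindle list (83.3%), 18 of 27 of mitotic kinases and regulators (66.7%) and 14 of 29 of centromere and kinetochore genes (48.3%), but in 2 of 22 of origin genes (9.09%) and 1 of 28 of fork genes (3.57%). Deoxynucleotide genes held them in 4 of 20 windows (20%) and histone genes, another S phase list, in 27 of 56 (48.2%). The 150 bases before the start are shown for CDK1, for the anaphase activator gene CDC20 (432 and 492 against 203 and 100.8), for the cyclin gene CCNB1 (638 and 606 against 312 and 229) and for the kinesin gene KIF23 (673 and 658 against 364 and 246), with each match in capitals. These and the promoters printed further on were likewise chosen after their values were seen, as list members with a match.
CDK1, chr10:60778181-60778330, plus strand: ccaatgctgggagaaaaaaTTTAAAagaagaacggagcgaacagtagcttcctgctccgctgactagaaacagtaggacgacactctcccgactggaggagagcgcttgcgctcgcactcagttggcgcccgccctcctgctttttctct
CDC20, chr1:43358831-43358980, plus strand: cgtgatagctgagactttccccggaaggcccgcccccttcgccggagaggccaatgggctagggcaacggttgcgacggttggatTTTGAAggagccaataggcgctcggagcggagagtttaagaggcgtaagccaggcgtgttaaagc
CCNB1, chr5:69167000-69167149, plus strand: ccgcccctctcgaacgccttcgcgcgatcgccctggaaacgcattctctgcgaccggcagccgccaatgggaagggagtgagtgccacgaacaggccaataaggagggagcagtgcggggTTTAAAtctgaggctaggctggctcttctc
KIF23, chr15:69414199-69414348, plus strand: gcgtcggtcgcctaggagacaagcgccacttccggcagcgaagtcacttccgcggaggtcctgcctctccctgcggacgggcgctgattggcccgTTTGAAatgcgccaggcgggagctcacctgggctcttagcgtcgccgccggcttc

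Replication-dependent histone genes, which are transcribed in S phase to package new DNA, fell in 53 of 61 tested cases and rose in 0 (median -1.004); 0 rose with edgeR and with DESeq2, and 0 by limma at an unadjusted p under 0.05. H3C8 went from 745 and 721 to 266 and 189 and H3C2 from 1212 and 1103 to 459 and 299. H3C15 had 5117 and 5110 in siCtrl against 1620 and 882, and H3C14 nearly the same values, 5220 and 5123 against 1659 and 835; these are near-identical copies, so reads could be split between them. The first siSFPQ-2 library was the higher at 50 of 61. Of their 56 promoter windows, 36 (64.3%) held TATAAA, against 12% of all windows and 6.15% of those of tested genes, 48 (85.7%) held CCAAT, against 35.7% and 36.4%, and 0 held the E2F letters. The windows of H3C2 and of H2BC11, which fell from 666 and 628 to 286 and 242, show the TATA letters in capitals.
H3C2, chr6:26032100-26032249, minus strand: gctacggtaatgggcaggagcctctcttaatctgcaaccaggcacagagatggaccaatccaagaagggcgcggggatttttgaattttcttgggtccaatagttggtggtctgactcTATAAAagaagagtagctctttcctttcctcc
H2BC11, chr6:27132796-27132945, minus strand: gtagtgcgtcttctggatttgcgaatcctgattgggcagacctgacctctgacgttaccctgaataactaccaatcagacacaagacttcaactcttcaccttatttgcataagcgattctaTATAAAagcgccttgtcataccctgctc

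Among G1 and S phase regulators, 9 of 17 fell and 4 rose (median -0.46); 1 was higher without either siCtrl library or the second siSFPQ-2 library. The cyclin D1 gene CCND1 fell from 5305 and 5829 to 2682 and 2195, and the cyclin E genes CCNE1 (309 and 354 against 151 and 132) and CCNE2 (587 and 646 against 282 and 174) fell too. CDK6, a kinase that pairs with D-type cyclins, rose from 1668 and 1603 to 4880 and 6226, a 3.40-fold rise. Of 13 genes of the E2F family and pocket proteins, 7 fell and 1 rose. E2F1 (583 and 574 against 262 and 152), the repressor gene E2F7 (1184 and 952 against 529 and 452) and the pocket protein gene RBL1 (1076 and 948 against 539 and 364) fell. The E2F partner gene TFDP2 rose from 828 and 803 to 1765 and 1641.

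Of 38 tested genes of homologous recombination and the Fanconi pathway, which repair breaks and crosslinks from the sister chromatid, 28 fell and 2 rose (median -0.82). XRCC3, which acts in strand exchange, fell from 1128 and 1049 to 432 and 306, and FANCI from 407 and 357 to 166 and 122. FANCL, the ubiquitin ligase of the same pathway, went the other way, from 1030 and 918 to 2550 and 2898, as did the end-resection gene RBBP8 (901 and 805 to 1210 and 1248). Of 17 genes of non-homologous end joining, the pathway that joins ends without a template, 3 rose and 3 fell (17.6% each, median 0.07), near the background; 1 was lower without the first siCtrl library or the second siSFPQ-2 library. XRCC4, the partner of DNA ligase IV, rose from 627 and 530 to 1700 and 1895, and TP53BP1 from 1019 and 822 to 1435 and 1523. PAXX fell from 144 and 150 to 63.3 and 73.1.

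**Figure D2:**
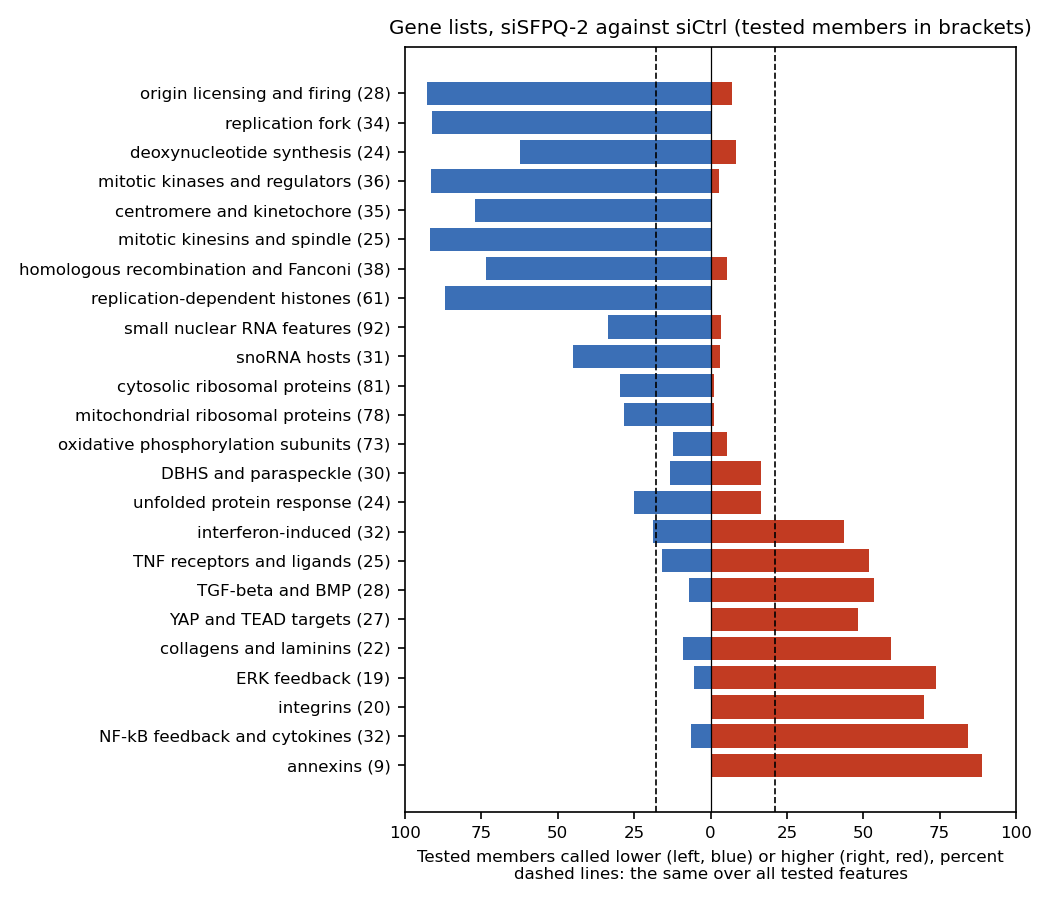
Share of tested members of 24 gene lists called lower (blue, to the left) and higher (red, to the right) with siSFPQ-2 at an adjusted p under 0.05, in percent, with the number of tested members in brackets; dashed lines mark 17.9% and 21.2%, the shares over all tested features. Replication, mitosis and histone lists reach far to the left, and NF-kB, integrin, ERK feedback and annexin lists far to the right.

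In the other direction, genes of NF-kB feedback and cytokines formed the list with the highest share of rises among those with over 10 tested members: 27 of 32 rose and 2 fell (84.4% and 6.25%). Their median log2 fold change was 1.03. NF-kB is a transcription factor family of inflammation that induces both cytokines and its own inhibitors. The interleukin gene IL6 had 27.9 and 32.1 normalized reads in siCtrl and 364 and 368 with siSFPQ-2, a 12.2-fold rise (log2 fold change 3.57, SE 0.16, adjusted p = 4.07e-07). IL1A rose from 6.38 and 6.65 to 125 and 176, and CXCL5 from 945 and 926 to 2141 and 2282. TNFAIP3, which encodes the feedback inhibitor A20, went from 140 and 117 to 803 and 1560. NFKB1, the p50 subunit gene, went from 856 and 853 to 2221 and 3505, and the inhibitor gene NFKBIA from 604 and 701 to 958 and 1203. These last 3 were named after their values were seen. The 2 that fell were TNFAIP2 (1812 and 2119 against 970 and 783) and the growth factor gene CSF1 (1990 and 2000 against 1373 and 1459), the latter not called without the second siCtrl library (adjusted p = 0.0506). Here the first siSFPQ-2 library was the higher at only 4 of 32 genes, with a median log2 difference of -0.24 for the first minus the second. Between 22 and 27 members were called higher without any single library.

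A common version of the site that NF-kB binds, GGG followed by 2 bases of any kind and TTTCC, was searched in the same windows, a motif added after these values were seen. It was in 11 of 27 windows of this list (40.7%), beside 1.92% of all windows and 2.20% of those of tested genes. The list was written from genes linked to NF-kB, and called members were not searched apart from the rest. The share therefore does not bear on the rises. Of the other lists searched, annexins (1 of 9, 11.1%), fork genes (2 of 28, 7.14%), ERK feedback genes (1 of 14, 7.14%), origin genes (1 of 22, 4.55%) and mitotic kinases and regulators (1 of 27, 3.70%) held matches. Deoxynucleotide, kinetochore, kinesin and spindle, recombination, histone, integrin, interferon-induced and ribosomal protein genes held 0. The 150 bases before the start of IL6, TNFAIP3 and NFKB1 are given with the matches, on either strand, in capitals.
IL6, chr7:22727050-22727199, plus strand: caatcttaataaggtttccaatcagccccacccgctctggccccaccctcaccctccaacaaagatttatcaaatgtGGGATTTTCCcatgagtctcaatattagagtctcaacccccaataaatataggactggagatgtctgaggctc
TNFAIP3, chr6:137867109-137867258, plus strand: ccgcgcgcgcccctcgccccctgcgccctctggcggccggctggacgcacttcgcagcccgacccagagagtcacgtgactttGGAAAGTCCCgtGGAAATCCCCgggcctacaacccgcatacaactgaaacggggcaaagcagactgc
NFKB1, chr4:102501209-102501358, plus strand: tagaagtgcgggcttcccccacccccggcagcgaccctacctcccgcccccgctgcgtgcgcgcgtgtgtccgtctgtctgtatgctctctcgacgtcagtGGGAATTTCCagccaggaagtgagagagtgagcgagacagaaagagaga

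Of 25 tested TNF receptors and ligands, 13 rose and 4 fell (52% and 16%, median 0.39). Besides TNFRSF9, the OX40 ligand gene TNFSF4 rose from 26.3 and 31.0 to 482 and 433, and the death receptor gene TNFRSF21 from 675 and 655 to 1457 and 1431. The decoy receptor gene TNFRSF6B fell from 116 and 134 to 54.4 and 22.1, and the B cell factor gene TNFSF13B from 120 and 83.1 to 33.0 and 32.1. The count of higher members in this list was 8 without the first siCtrl library and 7 without the second. Of 11 caspases and adaptors, 7 rose and 1 fell, among them CASP4, CASP10 (93.2 and 73.1 to 218 and 300.1) and the adaptor gene FADD (1129 and 1216 to 1790 and 1959). Of 16 genes of the BCL2 family, 10 rose and 1 fell (median 0.49). The death-promoting PMAIP1 rose from 102 and 99.7 to 524 and 600.2 and BMF from 267 and 253 to 918 and 1134. The protective BCL2L1 also rose, from 1323 and 1245 to 2153 and 2315. Higher caspases and adaptors numbered 4 without the second siCtrl library, and higher BCL2 family genes 6 without either siCtrl library. Among p53 targets, 13 of 32 rose and 3 fell (median 0.13), with PMAIP1, the death receptor gene TNFRSF10B (3388 and 3075 to 5996 and 7536) and the stress kinase gene PLK2 (14.4 and 17.7 to 53.5 and 55.4) higher and the repair gene DDB2 lower (796 and 698 to 445 and 482). Higher p53 targets numbered 7 without the second siCtrl library and 8 without the second siSFPQ-2 library.

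Genes that ERK signalling induces to restrain itself rose in 14 of 19 tested cases and fell in 1 (73.7% and 5.26%, median 0.76). DUSP6, the phosphatase that removes phosphate from ERK, went from 488 and 389 to 4134 and 4040, a 9.32-fold rise (log2 fold change 3.23, SE 0.14, adjusted p = 2.80e-07). The Sprouty family genes SPRED3 (156 and 153 to 1088 and 1392) and SPRY2 (495 and 522 to 1671 and 1565) rose as well, while DUSP2 fell from 592 and 697 to 337 and 354. Of 34 immediate early and AP-1 genes, 15 rose and 6 fell (44.1% and 17.6%, median 0.45), with KLF6 rising from 305 and 259 to 1261 and 1349 and MYC falling from 2008 and 2156 to 1398 and 1384. Of 31 receptor tyrosine kinases, 13 rose and 8 fell. The hepatocyte growth factor receptor gene MET went from 300.5 and 327 to 1479 and 1620, FLT1 from 179 and 208 to 1135 and 1360 and EGFR from 361 and 330.1 to 776 and 869. EPHB3 fell from 975 and 950.5 to 549.9 and 543 and ROR1 from 461 and 475 to 239 and 227. Lower genes numbered 3 of the immediate early list and 4 of the receptor list without either siCtrl library. They numbered 3 of the former without the second siSFPQ-2 library and 5 of the latter without the first.

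Genes of cell adhesion and matrix rose broadly. Of 20 tested integrins, the receptors that tie cells to the matrix, 14 rose and 0 fell (70%, median 1.11) by limma. At an unadjusted p under 0.05, 2 were lower. ITGA2 had 196 and 186 in siCtrl against 1688 and 2909, ITGA3 246 and 233 against 1027 and 1156, and ITGAV 1018 and 942 against 3369 and 4057. Of 22 collagens and laminins, 13 rose and 2 fell (median 0.86), with COL6A2 (441 and 414 to 996 and 1177) and LAMB1 (1512 and 1402 to 3055 and 3202) among the rises and COL18A1 (5307 and 5399 to 3315 and 2972) among the falls. Of 9 annexins, proteins that bind membranes in a calcium-dependent way, 8 rose and 0 fell by limma, and 0 were lower at an unadjusted p under 0.05. By edgeR and DESeq2 0 integrins and 0 annexins were lower, and 1 of each was called lower without the first siSFPQ-2 library. ANXA1, which mediates responses to glucocorticoids, had 6.38 and 4.43 in siCtrl and 110 and 223 with siSFPQ-2 (log2 fold change 4.64, SE 0.33, adjusted p = 4.73e-06), and the far more transcribed ANXA4 went from 1094 and 1078 to 2118 and 1952.

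TGF-beta and BMP genes rose in 15 of 28 cases and fell in 2 (median 0.56), with the feedback gene PMEPA1 (125 and 134 to 741 and 1022), the repressor gene TGIF1 (445 and 472 to 1726 and 1621) and the latency protein gene LTBP1 (2693 and 2568 to 7313 and 7460) higher, and ID2 lower. Targets of YAP and TEAD, which respond to cell shape and density, rose in 13 of 27 cases and fell in 0 (median 0.31) by limma; at an unadjusted p under 0.05 it was 1, with edgeR and DESeq2 0, and 1 was called lower without the first siSFPQ-2 library. CRIM1 rose from 2780 and 2930 to 6264 and 6512 and the YAP relative WWTR1 from 3343 and 3359 to 6401 and 7260. Of 15 genes of the switch between epithelial and mesenchymal states, 10 rose and 2 fell, and these were from both sides of the switch. The mesenchymal cadherin gene CDH2 (1231 and 1091 to 3906 and 4560) and the epithelial factor gene ELF3 (123 and 127 to 769 and 718) rose, and the mesenchymal factor gene SNAI2 fell from 899 and 1008 to 567 and 503.

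Innate immune genes gave a mixed picture. Of 32 tested interferon-induced genes, 14 rose and 6 fell (43.8% and 18.8%, median 0.29). The higher ones numbered 7 without the first siCtrl library or the second siSFPQ-2 library and 9 without the first siSFPQ-2 library. Between 2 and 3 were lower without either siCtrl library or the second siSFPQ-2 library. The neighbours on chromosome 10 went opposite ways: IFIT1 fell, as given above, whereas IFIT3 rose from 499 and 528 to 818 and 804. IFIT2 (1479 and 1307 against 2910 and 2063) was called higher and IFIT5 (1018 and 1072 against 752 and 572) lower, but neither was called once the first siCtrl library was left out (adjusted p = 0.0539 and 0.0984), or the second (0.107 and 0.136), or 1 siSFPQ-2 library each, the first for IFIT2 (0.0755) and the second for IFIT5 (0.153). The helicase gene DDX60 rose from 80.5 and 83.1 to 217 and 248 and IFITM1 from 63.0 and 54.3 to 163 and 179, while IFI44L fell from 840.0 and 701 to 330 and 238. Of 10 sensors of foreign RNA and DNA, 3 rose and 0 fell by limma, and 0 were lower by edgeR or DESeq2 or at an unadjusted p under 0.05. STING1 went from 86.9 and 79.8 to 277 and 245 and DDX58, which encodes RIG-I, from 212 and 175 to 406 and 403, whereas MAVS, EIF2AK2 and ADAR did not pass the threshold. Of 15 genes of the MHC class I pathway, 4 rose and 3 fell, against 1 and 1 without the first siCtrl library, with B2M higher (587 and 606 to 911 and 1139) and the peptide transporter gene TAP2 lower (304 and 277 to 158 and 164).

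Among markers of the neuroendocrine type of small cell lung cancer, NEUROD1 had 27.1 and 31.0 normalized reads in siCtrl and 25.9 and 11.1 with siSFPQ-2. DLL3 had 124 and 130 against 85.6 and 63.1, and SYP, near the median of tested features, 283 and 226 against 338 and 412; INSM1 and NCAM1 were not among the features analysed here, and CHGA did not reach the filter. Of 12 tested neuroendocrine genes, 4 rose and 1 fell (median -0.06), of which SYP and DLL3 lost their calls without single libraries, at an adjusted p = 0.215 and 0.133 without the second siCtrl library and 0.176 and 0.173 without the second siSFPQ-2 library, DLL3 also without siCtrl library 1 (0.102). Changes in the neuroendocrine list ranged from -0.78 to 2.35 on the log2 scale, so its largest change was a rise. That gene, TAGLN3, rose by between 1.82 and 2.88 with 1 library left out. In the list of the non-neuroendocrine state, 15 of 23 genes rose and 2 fell (65.2% and 8.70%, median 0.80). ANXA1 and S100A10 (21.5 and 19.9 to 187 and 306) led these rises, and YAP1 rose from 3312 and 2856 to 4634 and 5340. Of 22 Notch pathway genes, 4 rose and 6 fell: the glycosyltransferase gene MFNG went from 51.01 and 94.2 to 463 and 585 and the ligand gene JAG2 from 910.1 and 1184 to 661 and 515. Without the first siCtrl library 2 Notch genes were called lower, and without the second 2 higher and 3 lower.

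Immune and endothelial markers were mostly not among the tested features, whereas fibroblast and simple epithelial markers more often were. Of 12 immune markers 4 were tested, of 11 endothelial markers 2, of 12 fibroblast markers 6 and of 11 simple epithelial markers 7. Of the 4 tested immune markers, 1 was called higher and 1 lower. The myeloid integrin gene ITGAX rose from 4.78 and 2.22 to 27.6 and 41.0. CD68 fell, with a log2 fold change between -0.76 and -0.60 with 1 library left out. The endothelial receptor gene TEK rose from 38.3 and 48.7 to 88.2 and 145. Among epithelial markers 4 rose and 1 fell, with KRT18 at 11.9 and 13.3 against 110 and 105. CLDN4 had 65.3 and 56.5 against 261 and 312, while EPCAM did not pass the threshold. The marker that fell was CLDN7, with a log2 fold change between -1.16 and -0.72 with 1 library left out. COL1A1 rose from 227 and 202 to 477 and 551 and SPARC fell from 1547 and 1520 to 1069 and 881.

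Stress and metabolic lists moved both ways. Over all tested features 21.2% were called higher and 17.9% lower, and heat shock genes, at 18.2% and 13.6%, lay under both shares. No list was tested against these shares. In the ATF4 stress and serine synthesis list, 5 of 29 rose and 9 fell (17.2% and 31%). The cystine transporter gene SLC7A11 went from 251 and 173 to 1299 and 1334 and SLC38A2 from 2528 and 2512 to 5944 and 6676. The serine synthesis gene PSAT1 (1729 and 1361 to 780 and 528) fell, as did CBS (2188 and 2012 to 996 and 615). The unfolded protein response had 4 rises and 6 falls of 24 (16.7% and 25%), with EDEM1 higher (630 and 720.1 to 1572 and 1716) and SDF2L1 lower (322 and 300.2 to 143 and 138). Heat shock genes numbered 4 rises and 3 falls of 22, with 1 fall left without the second siCtrl library. Cholesterol synthesis had 8 rises and 3 falls of 26 (30.8% and 11.5%), among them a rise of the synthesis gene DHCR7 (561 and 491 to 982 and 969). In glycolysis and hypoxia, 7 of 35 rose and 9 fell (20% and 25.7%). The hypoxia factor gene EPAS1 (233 and 214 to 1087 and 1363) and glucose transporter gene SLC2A3 (15.9 and 12.2 to 137 and 222) rose, against falls of TPI1 (1117 and 1308 to 717 and 638) and HK2 (881 and 775 to 466 and 368). Of 19 circadian clock genes, 4 rose and 6 fell (21.1% and 31.6%). BHLHE40 went from 151 and 200.5 to 611 and 762 and PER3 from 99.6 and 87.5 to 29.4 and 29.9. Many of these counts were smaller with 1 library left out, which leaves 1 library in a group. Without the second siCtrl library, 3 ATF4 genes were higher and 4 lower, 3 unfolded protein genes lower, 3 cholesterol genes higher, and 2 glycolysis and hypoxia genes higher and 5 lower. Without the first siCtrl library 4 ATF4 genes and 4 glycolysis and hypoxia genes were lower.

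Since SFPQ acts on nascent RNA, the genes of RNA processing were listed separately. Of 37 SR and hnRNP splicing factors, 5 rose and 12 fell (13.5% and 32.4%, median -0.21). MBNL2 (797 and 785 to 1862 and 1983), RBFOX2 (1979 and 1913 to 4134 and 4366) and PTBP3 (782 and 739 to 1436 and 1734) rose, and PTBP1 (2561 and 2806 to 1845 and 1623) and SRSF2 (1167 and 1323 to 818 and 808) fell. Of 38 pausing and elongation factors, which govern the release of polymerase into genes, 11 rose and 2 fell (28.9% and 5.26%, median 0.08). They included ELL2 (712 and 716 to 1465 and 2163), AFF1 (411 and 421 to 694 and 849) and AFF4 (1991 and 1943 to 3009 and 3505) higher and the histone chaperone gene SSRP1 lower (610 and 741 to 384 and 349). Of 33 genes of microRNA processing and action, 6 rose and 6 fell (18.2% each, median -0.07), near the background; TUT7 (583 and 531 to 839 and 1059) and ZSWIM8 (481 and 460 to 716 and 769) were the leading rises. Without the first siCtrl library 0 microRNA processing genes were lower and 6 elongation factors higher. Without the second siCtrl library 6 splicing factors and 1 microRNA processing gene were lower and 7 elongation factors and 2 microRNA processing genes higher. Without the second siSFPQ-2 library 7 and 1 were lower and 6 and 3 higher.

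Primary transcripts of microRNAs, the long RNAs from which Drosha cuts the hairpins, moved both ways. Of 44 long non-coding hosts, 10 rose and 15 fell (22.7% and 34.1%, median -0.19), and of 50 protein-coding hosts 13 rose and 13 fell (26% each, median 0.10). The shares over all tested features were 21.2% higher and 17.9% lower. MIR17HG, the primary transcript of the proliferation-linked cluster from miR-17 to miR-92a (chromosome 13, 91347687 to 91354577), had 1491 and 1759 normalized reads in siCtrl and 898 and 900 with siSFPQ-2, or -0.85 on the log2 scale (SE 0.13, adjusted p = 7.10e-04). Both siSFPQ-2 libraries lay well below both siCtrl libraries and nearly on each other. MIR181A1HG, host of miR-181a and miR-181b, rose from 28.7 and 33.2 to 236 and 290.1, an 8.50-fold rise. MIR181A2HG, named for another miR-181a gene, had more reads, 386.5 and 426.5 in siCtrl against 421.6 and 481.7. It did not pass the threshold (log2 fold change 0.15, limma, adjusted p = 0.355). MIR4435-2HG (499 and 482 to 1035 and 1133) and CYTOR (617 and 493 to 1132 and 1086) also rose. MIR924HG (2181 and 1695 to 1005 and 591), DNM3OS (1316 and 1329 to 791 and 698) and DLEU1 (247 and 245 to 129 and 118) fell. Among protein-coding hosts, VMP1, whose end overlaps the miR-21 transcript, rose from 2352 and 1813 to 6023 and 6317, a 2.96-fold rise, PDE2A from 148 and 200.5 to 992 and 1055, and IGF2 fell from 4126 and 4526 to 2064 and 1089. Lower protein-coding hosts numbered 5 without the first siCtrl library and 7 without the second siCtrl or second siSFPQ-2 library.

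MIR181A2HG, which did not pass the threshold, is not among the hosts used here. The mature forms made from the hosts that moved are listed from RefSeq (GRCh38.p14), with the seed, bases 2 to 8, in capitals. The first 6 belong to the falling MIR17HG, the next 2 to the rising MIR181A1HG and the last to the locus at the end of the rising VMP1. They show that the cluster holds 4 different seeds, AAAGUGC in miR-17 and miR-20a, AAGGUGC in miR-18a, GUGCAAA in both forms of miR-19 and AUUGCAC in miR-92a, and that both members from MIR181A1HG share ACAUUCA.
miR-17-5p: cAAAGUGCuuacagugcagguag
miR-18a-5p: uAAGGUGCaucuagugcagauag
miR-19a-3p: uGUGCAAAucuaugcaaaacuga
miR-20a-5p: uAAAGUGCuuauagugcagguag
miR-19b-3p: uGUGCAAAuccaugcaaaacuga
miR-92a-3p: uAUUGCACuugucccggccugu
miR-181a-5p: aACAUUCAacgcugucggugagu
miR-181b-5p: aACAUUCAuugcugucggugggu
miR-21-5p: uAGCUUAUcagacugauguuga

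Features annotated as microRNA hairpins hold few reads and overlap their hosts, whose reads cannot be told apart from theirs. Of 149 tested, 13 rose and 18 fell (8.72% and 12.1%, median -0.24). In the miR-17 cluster MIR17 had 16.7 and 21.1 in siCtrl against 7.13 and 7.75 and was called lower (adjusted p = 0.0277), whereas MIR18A, MIR19A, MIR20A, MIR19B1 and MIR92A1, with at most 25.5 normalized reads in any of the 4 libraries, did not pass the threshold. MIR21 rose from 14.4 and 5.54 to 58.8 and 49.8 (log2 fold change 2.46, adjusted p = 6.33e-04), and between 1.85 and 3.08 with 1 library left out. MIR3185 fell from 90.8 and 93.0 to 12.5 and 16.6. Called hairpin features numbered 8 in the higher direction and 5 in the lower without the second siCtrl library. Without the second siSFPQ-2 library 6 were higher.

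Small stable RNAs leaned down or stayed. Of 92 tested small nuclear RNA features, 31 fell and 3 rose (33.7% and 3.26%, median -0.65). Among them were RNU4ATAC of the minor spliceosome (1257 and 1059 to 752 and 672) and RNVU1-4 (749 and 629 to 441 and 381), the latter not called without the first siCtrl library (adjusted p = 0.0631). Of 148 small nucleolar RNA features, 12 fell and 2 rose, with the U3 copies SNORD3B-1 (6269 and 6252 to 3526 and 3446), SNORD3B-2 and SNORD3C lower; such copies share reads and cannot be separated. Of 31 snoRNA hosts, 14 fell and 1 rose (45.2% and 3.23%), with SNHG7 falling from 3219 and 3627 to 1656 and 1627 and SNHG1 from 1078 and 1195 to 717 and 705. Of 81 cytosolic ribosomal protein genes, 24 fell and 1 rose (29.6% and 1.23%, median -0.22), by small amounts: RPL36 went from 1121 and 1014 to 568 and 579 and RPS15A from 1278 and 1363 to 875 and 881. Mitochondrial ribosomal proteins had 22 falls and 1 rise of 78 (median -0.18), with MRPS25 going from 636 and 656 to 402 and 362, while oxidative phosphorylation subunits had 9 falls and 4 rises of 73, under the background on both sides. These counts shrank most when a single library was left out: lower small nuclear RNA features numbered 5 without the second siSFPQ-2 library. Lower snoRNA hosts and small nucleolar RNA features numbered 6 each without the second siCtrl library. Lower cytosolic ribosomal protein genes numbered 11 without either siCtrl library, mitochondrial ones 8 without the first, and oxidative phosphorylation subunits 1 without the second siCtrl library.

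The share of calls differed with gene length. Of 2872 tested protein-coding genes spanning under 10 kb, 14.0% rose and 24.1% fell (median log2 fold change -0.14). The shares were 17.7% and 22.02% of 3929 genes from 10 to 30 kb, 27.6% and 14.8% of 4297 from 30 to 100 kb, and 45.5% and 9.01% of 1998 from 100 to 300 kb, with a median of 0.29. Among 480 genes of 300 kb and over, 39.0% rose and 15.4% fell, with a median of 0.11 and a wider middle range, from -0.28 to 0.73, than in any shorter class. With a filter at 50 the shares in the shortest and the 100 to 300 kb class were 13.4% and 25.7%, and 46.6% and 9.15%. Very long genes parted individually: of 22 long neuronal and synaptic genes 5 rose and 6 fell. Higher were CNTNAP2, the glutamate receptor gene GRIK2 (218 and 236 to 1588 and 2041) and the guidance receptor gene ROBO1 (1221 and 1114 to 2078 and 2714). Lower were GRIK1 (8394 and 6308 to 2377 and 1915), ROBO2 (11020 and 9005 to 4974 and 4443) and OPCML (12000 and 10490 to 5243 and 2975). Of 21 giants of common fragile sites, 8 rose and 7 fell, with DPYD at 1074 and 1001 against 2872 and 3102 and SMYD3 at 4301 and 3498 against 2007 and 1337; 5 of them were called higher without the second siCtrl library.

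**Figure D3:**
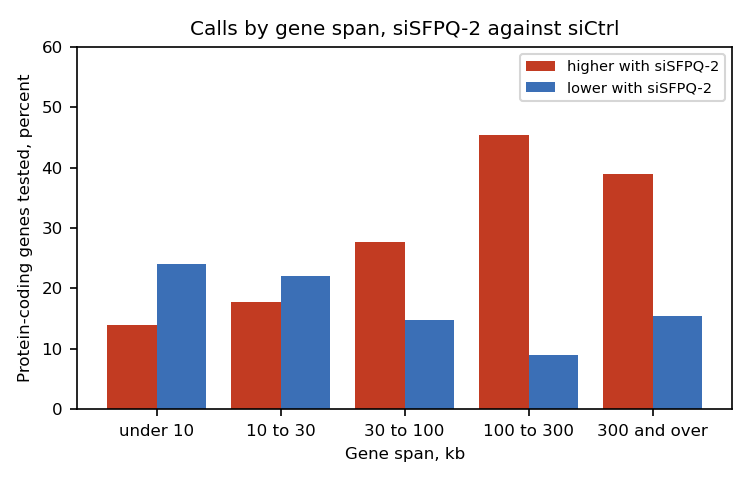
Percent of tested protein-coding genes called higher (red) and lower (blue) with siSFPQ-2 by gene span in kb. Rises go from 14.0% of genes under 10 kb to 45.5% of genes of 100 to 300 kb, falls from 24.1% to 9.01%, and the longest class stands at 39.0% and 15.4%.

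The deposited profiles give signal in 500 bins along each feature, taken here as 100 bins before the start, 300 along the scaled gene and 100 after its end, since the mean signal peaked in the first bin of the second stretch in every class and library. The authors sorted features into classes named down (2528), ns (46081) and up (3402); the sources used here do not give how the classes were set or the signal scaled, so ratios within a profile were compared. PRO-seq signal near the start comes largely from polymerase paused there, and signal in the body from elongating polymerase. The mean signal of the start window (the first 3 bins of the gene) over that of the body (240 bins in its middle) in the class up was 8.64 and 9.54 in siCtrl and 5.84 and 6.89 with siSFPQ-2. In the class ns it was 14.8 and 13.7 against 11.8 and 13.7, and in the class down 8.49 and 7.73 against 8.43 and 10.9. In the class up both siSFPQ-2 libraries were well below both siCtrl libraries, in ns the second siSFPQ-2 library all but met the second siCtrl library, and in down the groups overlapped. Since the gene is scaled, the start window is wider in bases in longer genes and takes in more of their body. Gene length was not matched between the classes.

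Gene by gene, 0 of 18124 genes passed the threshold for the ratio of start to body in either direction (0% called; limma over the 4 libraries), and at an unadjusted p under 0.05 827 were higher and 3668 lower. The median log2 change over all these genes was -0.23, and 65.8% lay below 0. In the class up the median was -0.55 with 78.0% below 0, in ns it was -0.24 and in down 0.13. Since the rule of the classes is unknown and may have used these libraries, the order of these medians is a description. The median over all genes stayed between -0.27 and -0.18 when any of the 4 libraries was left out. The ratio of the last 30 bins of the gene to the early body (the first 30 bins of the middle) had a median change of -0.03 with 0 of 18168 genes called (1069 higher and 1254 lower at an unadjusted p under 0.05). The ratio of the first 50 bins after the end to the last 30 bins of the gene had a median change of -0.07 with 0 of 17128 called (466 higher and 705 lower at an unadjusted p under 0.05).

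**Figure D4:**
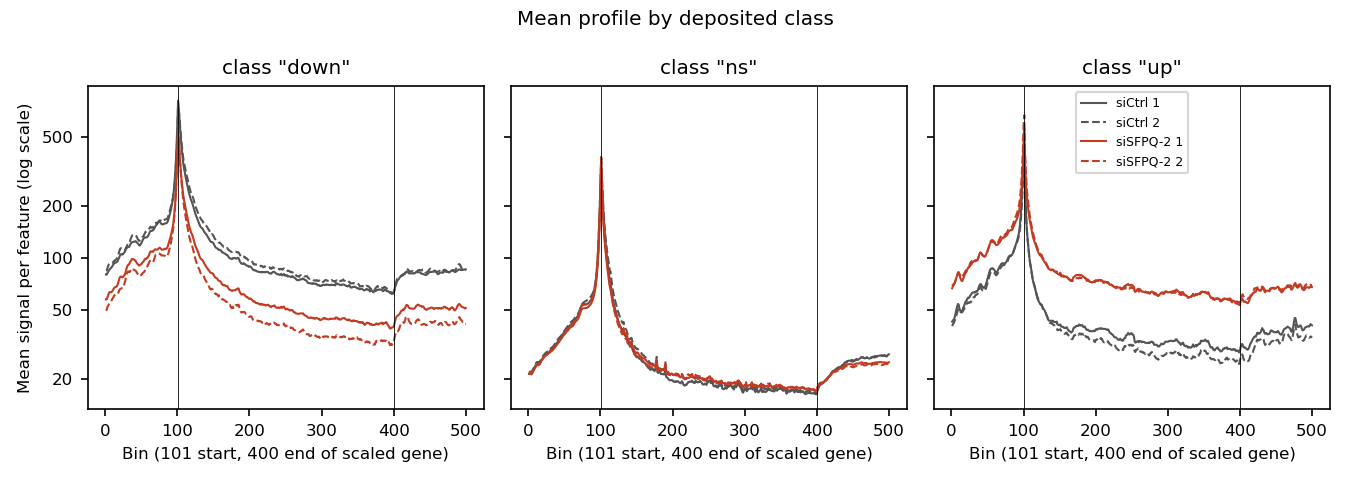
Mean signal per feature on a log scale along 500 bins, for the deposited classes down, ns and up; grey lines are the siCtrl libraries and red lines the siSFPQ-2 libraries, solid for the first and dashed for the second, and vertical lines mark the start and end of the scaled gene. The red lines run below the grey across the whole gene in down and above them in up. In ns they lie close to the grey lines except at the start, where the first siSFPQ-2 library is lower. There the start window means are 252 and 288 with siSFPQ-2 against 299 and 293 in siCtrl.

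The other siRNA against SFPQ allows a comparison whose difference does not use siCtrl, although the siCtrl libraries enter the estimate of spread. Against siSFPQ-3, 5 features were higher with siSFPQ-2 (0.023%) and 17 lower (0.0781%). Fitted without the siCtrl libraries, 0 were higher and 0 lower. Both siRNA groups are set against the same siCtrl libraries elsewhere in the series, where siSFPQ-3 had 5007 features higher (23%) and 4436 lower (20.4%). ACKR3, an atypical chemokine receptor gene, had 409 and 485 normalized reads with siSFPQ-2, 209 and 207 with siSFPQ-3 and 110 and 99.7 in siCtrl, a difference between the siRNAs of 1.10 on the log2 scale (adjusted p = 0.0477). SH3RF3, a ubiquitin ligase gene, had 3749 and 3883, 2401 and 2299, and 2013 and 2015 in the same order. KLF2, HS3ST3B1 and AC073071.1, named after their values were seen, complete the 5. The genes below their level with siSFPQ-3 fell into groups by their siCtrl level. HKDC1 (364 and 338 with siSFPQ-2, 659 and 906 with siSFPQ-3, 51.8 and 50.96 in siCtrl), ABLIM1 (280 and 309, 630.3 and 650.2, 61.4 and 68.7), TRIM2 and ABCB4 were above siCtrl with both siRNAs and further with siSFPQ-3. The mitotic genes KIF2C (425 and 331, 727 and 726, 949 and 810) and CDCA2 (509 and 414, 874 and 811, 1246 and 1159) were lower with siSFPQ-2 than in either other group. SLC18A1 (199.6 and 172, 443 and 496, 152 and 185) and YPEL2 (234 and 209, 447 and 417, 173 and 197) were close to siCtrl with siSFPQ-2, and ALPK2 and CKAP2L were below siCtrl with siSFPQ-2 and above it with siSFPQ-3. The call of CKAP2L against siCtrl was lost when the first siCtrl library was left out (-0.61 on the log2 scale, adjusted p = 0.0542).

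In 5 cell cycle lists the siSFPQ-2 libraries lay lower than the siSFPQ-3 libraries on average, although few members passed the test of the difference singly. The siSFPQ-2 mean was below the siSFPQ-3 mean at 36 of 36 mitotic kinases and regulators, 25 of 25 kinesin and spindle genes, 34 of 35 centromere and kinetochore genes, 33 of 34 fork genes and 27 of 28 origin genes, beside 10978 of 21773 tested features. The median differences were -0.62, -0.66, -0.44, -0.34 and -0.36 on the log2 scale, against -0.0024 over all tested features. Of these members 2 of the kinesin and spindle list and 0 of the other 4 lists were called lower, and 0 in any of the 5 were called higher, by limma. Other lists lay low as well: homologous recombination and Fanconi genes (median -0.32, 28 of 38 lower) and the epithelial and mesenchymal list (-0.28, 12 of 15). Small nucleolar RNA features (-0.27, 110 of 148), small nuclear RNA features (-0.21, 73 of 92) and integrins (-0.20, 15 of 20) did too. So did deoxynucleotide synthesis (-0.16, 21 of 24) and the E2F family and pocket proteins (-0.16, 11 of 13). Histone genes (-0.07), ERK feedback genes (0.04), NF-kB feedback and cytokines (-0.08) and cytosolic ribosomal proteins (0.02) lay near 0. Within the siSFPQ-2 group, the first library was above the second at 36 of 36 mitotic kinases and regulators, by a median of 0.54. At kinesin and spindle genes it was above at 23 of 25, by a median of 0.57. Members of a list are not independent replicates, and the part of this library difference was not tested. The calls between the siRNAs rest on few libraries: without the second siSFPQ-2 library there were 0 in either direction, without the first siSFPQ-2 library 32 higher and 213 lower, without the first siSFPQ-3 library 95 and 90, and without the second siSFPQ-3 library 11 and 48.

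**Figure D5:**
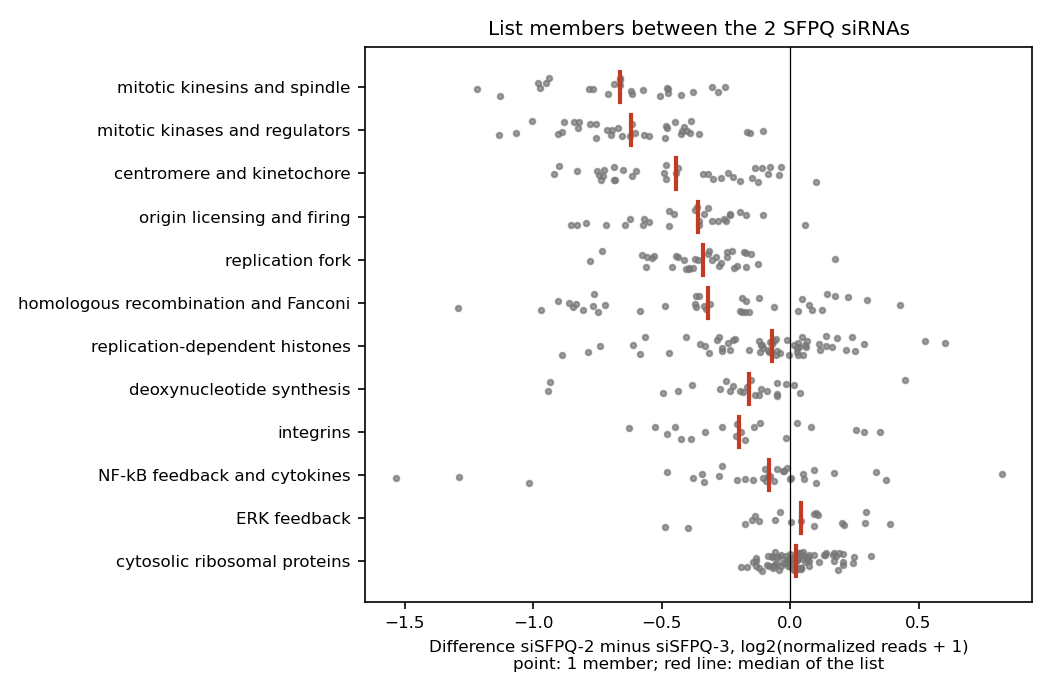
Difference between siSFPQ-2 and siSFPQ-3 on the log2(normalized reads + 1) scale for each member of 12 gene lists (points) with the median of each list (red line). Kinesin, mitotic kinase and kinetochore genes lie almost wholly left of 0, with medians of -0.66, -0.62 and -0.44, and ERK feedback and ribosomal protein genes around 0.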

How the data were processed

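PRO-seq read ends were counted by the authors and deposited as normalized signal for each feature in 6 libraries; the submitters' processing notes name DESeq2 1.38.1, SAMtools 1.3.1, Bowtie2, cutadapt 1.14 and UMI-tools, and the builds hg38 and dm6; the sources used here do not give the role of dm6. All values of each library were whole multiples of 1 read within 0.1 read, so reads were recovered for the count alternatives. The values already matched median-of-ratios scaling (factors 1.005 to 1.011), under which a change of transcription common to most genes cannot be seen. After 240 repeated rows were removed, log2(normalized reads + 1) was fitted with limma 3.58.1 (R 4.3.3) in 1 model of 3 groups, which adds siSFPQ-3 to the estimate of spread, with Benjamini-Hochberg adjustment over the 21773 features that reached 10 in 2 or more libraries. Fold changes on this scale understate those of features with few reads. edgeR 4.0.16 and DESeq2 1.42.0 on recovered reads, other pseudocounts, filters and scalings, a replicate block and leaving out each library were the alternatives. The test was run on simulated data for siSFPQ-2 against siCtrl, with 100 genes changed by 1 and 100 by 2 on the log2 scale. Of those changed by 1, 90% were recovered. The changed genes were drawn only from features with a mean well above 10, so this share does not cover features with few reads. Among 21507 simulated features, changed ones included, 13 unchanged ones were called. Far fewer genes were changed there than were called in the data. Libraries of a group differed beyond counting noise (chi-square per degree of freedom from 10.7 to 23.6) and each was counted as 1 sample.

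Features were matched to RefSeq by symbol (18746), synonym (401) or accession (40), and 6640 were unmatched. The deposited profile signal, by library and class, was averaged over bins and compared as log2 ratios in the 4 libraries. Named genes were SFPQ, its relatives, NEAT1 and MIR17HG; the 15 largest rises and falls past the threshold with groups that do not overlap and enough reads; up to 3 members of each list in each direction with the smallest p (up to 6 for microRNA hosts); complete sets of the GINS, MCM, ORC, IFIT and RUNX genes; and the largest differences between the siRNAs. The comparison, the lists and the members were chosen with earlier results of these data known. A few features that met these rules are not reported here.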

Additional observations from a re-analysis of the deposited data

Results flagged for a closer look

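These 12 genes differed between the siRNAs against SFPQ by the limma test of the difference itself, siSFPQ-2 minus siSFPQ-3 on the log2(normalized reads + 1) scale, with 2 libraries in each group. ACKR3 (1.10) and SH3RF3 (0.70) were higher with siSFPQ-2. SLC18A1 (-1.34), ALPK2 (-1.33), CKAP2L (-1.22), HKDC1 (-1.14), ABLIM1 (-1.12), YPEL2 (-0.96), KIF2C (-0.95), ABCB4 (-0.93), TRIM2 (-0.90) and CDCA2 (-0.87) were lower. All 12 calls were lost without the second siSFPQ-2 library and in the fit of 4 libraries.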

How the results depend on the processing

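Against siCtrl, the counts of 4621 higher and 3906 lower features stayed within 1.5 times under every alternative that kept all libraries, from 3928 to 5361 higher and from 3045 to 4927 lower, the highest of each with the replicate block. Same-numbered libraries of siCtrl and siSFPQ-2 correlated in their deviations at 0.0529, and those of siSFPQ-2 and siSFPQ-3 at 0.382; with 2 libraries a group and no shared origin in the labels, the numbers were not taken as pairs. With 1 library left out the counts ranged from 2914 to 4106 and from 1792 to 3645, and higher TNF receptors and ligands from 7 to 9. Between the siRNAs, 5 higher and 17 lower became 0 and 5 with a pseudocount of 0.1, 0 and 3 with a filter at 50, 0 and 1 at the same total, 0 and 0 in the fit of 4 libraries, 11 and 40 by edgeR, 47 and 208 by DESeq2, and 188 and 572 with the replicate block; with 1 library left out they ranged from 0 to 95 and from 0 to 213. Some list medians changed sign, among them those of RNA and DNA sensors (-0.079 with a filter at 50, from -0.033 to 0.29 with 1 library left out, the lowest without the second siSFPQ-2 library), common fragile site giants (-0.11 without the second siCtrl library, from -0.12 without the first siSFPQ-2 library to 0.19 without the first siCtrl library), immune markers (1.11, but -0.68 with a filter at 50), microRNA features (0.037 without a filter) and neuroendocrine genes (0.12 without the first siSFPQ-2 library). Medians of heat shock, Notch, glycolysis and hypoxia, unfolded protein response and small nucleolar RNA lists, all within 0.1 of 0, also crossed it, as did the change of the late to early body ratio (0.034 without the first siCtrl library, -0.094 without the second). The cause of these changes was not tested. Of 319 named genes called against siCtrl, 0 changed direction in any alternative; 17 calls were lost by DESeq2, 3 by edgeR, 53 and 49 without the first and second siCtrl library, and 18 and 41 without the first and second siSFPQ-2 library. With 2 libraries a group, their number limits the precision, and so does depth at features with few reads.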
